A study of Mus musculus with 9 samples.

Results

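The rows described here are 9 rows of a bone marrow (BM) count table that carry the names of genes of the red cell lineage, namely Gata1, Klf1, Hba-a1, Hba-a2, Alas2, Ank1, Tfrc, Epor and Ermap. The table has 53172 rows in all. The rows were found by name, and a row was taken further where its mean over the mice reached 10 counts. That left 4 rows (Gata1, Hba-a1, Hba-a2 and Tfrc) and set 5 aside. The series holds RNA-seq of BM from 9 mice in 3 groups of 3. BMT mice received 9.5 Gy of whole-body irradiation and, the day after, 500000 BM cells. CDSCs mice received the same irradiation and 500000 dissociated, unsorted cells of costal cartilage. The paper calls these enzyme-isolated costal cartilage-derived stem cells (CDSCs here) and reports that they held a few hematopoietic stem cells and multipotent progenitors. The methods give WT recipients (CD45.2) and donors marked by CD45.1 or ZsGreen, with the CDSCs taken from neonatal mice. Marrow of both groups was taken 2 weeks later, and Health mice were neither irradiated nor transplanted and were of matching age. Recipients of cells thus also differ from Health by irradiation, and these cannot be told apart in either comparison with Health. The labels do not say how the 3 mice of a group were housed or processed, so that the p-values measure the spread between these libraries.

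Red cells form in the marrow from progenitors that come under the control of GATA1 and KLF1, transcription factors that bind GATA and CACCC motifs. These factors turn on the globin genes, the enzymes of heme synthesis, the transferrin receptor that brings in iron, and the proteins of the red cell membrane and its skeleton. Erythropoietin, read by its receptor EPOR on the progenitors, keeps these cells alive. Erythroblasts are a large share of the cells of healthy marrow and hold very abundant globin mRNA, so the rows named here would ordinarily stand high and move together from mouse to mouse. In bulk RNA, fewer erythroid cells and less RNA per erythroid cell cannot be told apart. By the methods, equal amounts of CD45+ and CD45- cells were sequenced and merged at equal depth, whereas the labels speak of all marrow cells. If merged, levels need not follow the share of erythroid cells in whole marrow.

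The 9 rows did not stand high. Of the 9, 2 (Alas2 and Epor) had 0 counts in every mouse, and 3 (Klf1, Ank1 and Ermap) had at most 7 counts in any mouse. Gata1 and Tfrc had means of 42.3 and 55.1 counts, Hba-a2 had 27.4 and Hba-a1 had 701. The median row among the 12572 rows kept by edgeR's low-count filter had a mean of 122 counts, so that Hba-a1 alone among the 9 lay above it. Libraries were of similar depth, with totals from 8971467 to 9882081 counts in BMT, from 8741155 to 10181289 in CDSCs and from 8938925 to 10121990 in Health. At these depths a count of 0 allows a level of up to 3 counts, or 0.295 to 0.343 CPM (a count divided by the library total and scaled alike in all mice), a limit that covers counting error only. Among all names, 22.4% reached a mean of 10 counts and 24951 names were at 0 in all mice.

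**Figure D1:**
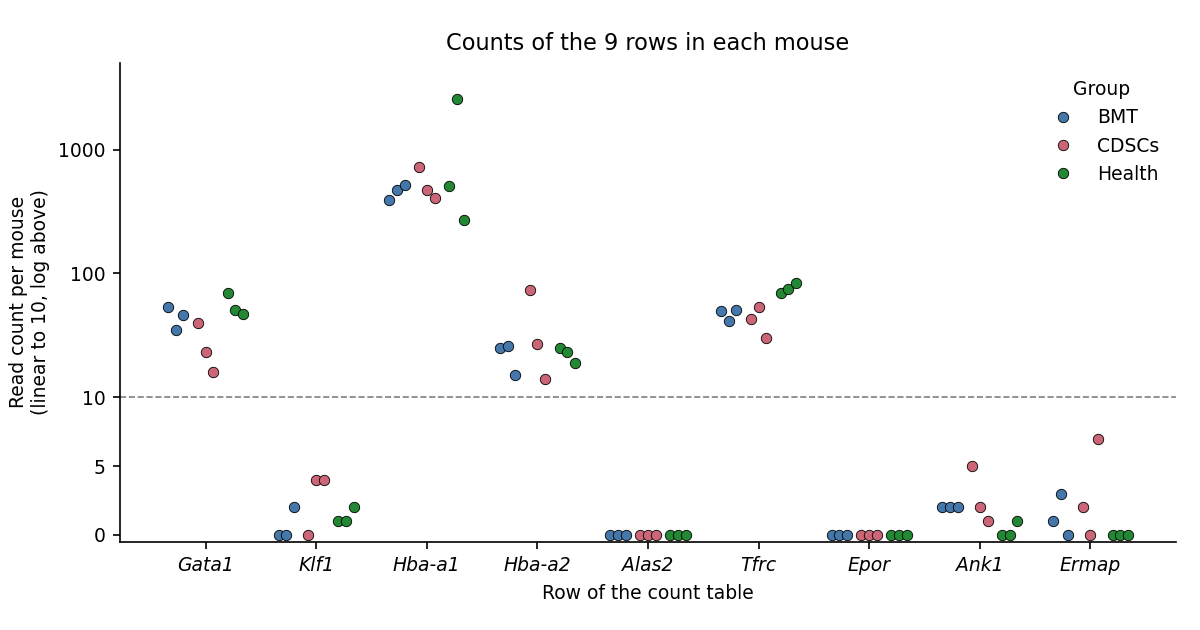
Read counts of the 9 rows in each of the 9 mice, with groups by colour (BMT blue, CDSCs red, Health green). The vertical axis is linear up to 10 and logarithmic above, and the dashed line marks 10 counts. Gata1, Hba-a1, Hba-a2 and Tfrc lie above the line in every mouse, the other 5 rows lie below it in every mouse, and Health mouse 2 stands at 2550 counts for Hba-a1.

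The names of the table were therefore checked before any level was read as that of a gene. The beta globin rows Hbb-bs and Hbb-bt, which should be among the most abundant mRNAs of marrow, were at 0 in every mouse. So were Car1 and Rhag, further markers of erythroid cells. Actb, which every cell uses, had 20 to 37 counts, and Eef1a1, the elongation factor of all translation, had 0 to 3. Of 77 rows named for ribosomal proteins, 43 had a mean under 10 counts and 15 were at 0 throughout. In contrast, the row with the most counts was Olfr648, named for an olfactory receptor, with a mean of 350395 counts, and 111 of 1410 olfactory receptor rows reached a mean of 10. The lengths that the authors used to make TPM, a measure per length, do belong to the names. They equalled the exon length of the gene of that name in GENCODE M21 (mouse build GRCm38) within 0.1% for 7844 of the 8238 names compared (95.2%), Gata1 (2438 bases), Hba-a1 (812), Hba-a2 (667), Ank1 (13527), Tfrc (6185) and Ermap (5297) among them. Levels below are those of rows, and whether the reads in a row came from the gene of its name was not tested.

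Gata1 (X:7959260-7978071, minus strand, GENCODE M21 on GRCm38) encodes the zinc finger factor on which erythroid and megakaryocyte development depends. Its row had 54, 35 and 46 counts in the BMT mice, 40, 23 and 16 in the CDSCs mice, and 69, 51 and 47 in the Health mice. CDSCs mice 2 and 3 were the lowest of all, and the CDSCs and Health mice did not overlap. As CPM the row stood at 4.75 ± 1.23 in BMT, 2.71 ± 1.09 in CDSCs and 5.93 ± 1.55 in Health (SD, n = 3 each). Klf1 (8:84901928-84905291, plus strand) encodes the factor that activates adult beta globin. Its row had 0, 0 and 2 counts in BMT, 0, 4 and 4 in CDSCs, and 1, 1 and 2 in Health, which is too few for a comparison.

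The alpha globin rows were unequal. Hba-a1 and Hba-a2 lie near each other on chromosome 11 (32283511-32284465 and 32296489-32297298, both on the plus strand) and both encode the alpha chain of adult hemoglobin. Their coding sequences are shown because they bear on how the counts of these rows can be read. Each holds 429 bases in 3 exons, and they are 99.8% identical. A single base differs, C381T from Hba-a1 to Hba-a2 counted from the A of the start codon. The third coding exon, positions 301 to 429, holds it and is printed with that base in capitals.
Hba-a1 at chr11:32284263-32284391, plus strand: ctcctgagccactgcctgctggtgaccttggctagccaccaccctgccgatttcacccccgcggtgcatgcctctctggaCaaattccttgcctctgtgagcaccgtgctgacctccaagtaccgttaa
Hba-a2 at chr11:32297080-32297208, plus strand: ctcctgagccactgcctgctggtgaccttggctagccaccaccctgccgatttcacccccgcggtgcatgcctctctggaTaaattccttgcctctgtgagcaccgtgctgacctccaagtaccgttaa
Reads from such a pair can be placed on either gene, so each row is uncertain on its own.

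The row Hba-a1 had 395, 472 and 516 counts in the BMT mice, 730, 471 and 404 in the CDSCs mice, and 506, 2550 and 269 in the Health mice. Health mouse 2 stood far above the other 8 mice, and Health mouse 3 was the lowest, so the Health group held both ends of the range. The row Hba-a2 had 25, 26 and 15 counts in BMT, 73, 27 and 14 in CDSCs, and 25, 23 and 19 in Health. CDSCs mouse 1 stood above the others, and Health mouse 2, so high for Hba-a1, was not raised. The count of Hba-a1 over that of Hba-a2 ran from 10 in CDSCs mouse 1 to 110.9 in Health mouse 2. Per length, the deposited TPM of Hba-a1 averaged 128 ± 10.05 in BMT, 146 ± 30.2 in CDSCs and 292 ± 315 in Health (SD, n = 3 each). That of Hba-a2 averaged 7.53 ± 2.31, 12.2 ± 8.74 and 7.54 ± 1.14. Among the 10 globin rows in the table, 4 (Hbb-bs, Hbb-bt, Hbb-bh1 and Hbb-bh2, all of the beta cluster) were at 0, while the embryonic gene's row Hba-x had a mean of 384 counts.

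Heme synthesis, iron uptake, the erythropoietin receptor and the membrane gave 5 of the rows. Alas2 (X:150547375-150570638, plus strand), the erythroid enzyme for the first step of heme synthesis, had 0 counts in every mouse. So had Epor (9:21958897-21963506, minus strand), the receptor for erythropoietin. Ank1 (8:22974844-23150497, plus strand), the ankyrin that ties the membrane of red cells to its spectrin skeleton, had 2 counts in each BMT mouse, 5, 2 and 1 in CDSCs, and 0, 0 and 1 in Health. Ermap (4:119175457-119190011, minus strand), a surface protein of erythroid cells, had 1, 3 and 0 counts in BMT, 2, 0 and 7 in CDSCs and 0 in each Health mouse. These rows are at or near the limit of 3 counts and were not compared. Tfrc (16:32608920-32632794, plus strand), the transferrin receptor, is used by dividing cells of many kinds and most heavily by erythroblasts. Its row had 50, 41 and 51 counts in BMT, 43, 54 and 30 in CDSCs, and 69, 75 and 83 in Health. The 3 Health mice were the 3 highest, at 8.01 ± 0.782 CPM against 4.97 ± 0.716 in BMT and 4.41 ± 1.08 in CDSCs (SD, n = 3 each).

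**Figure D2:**
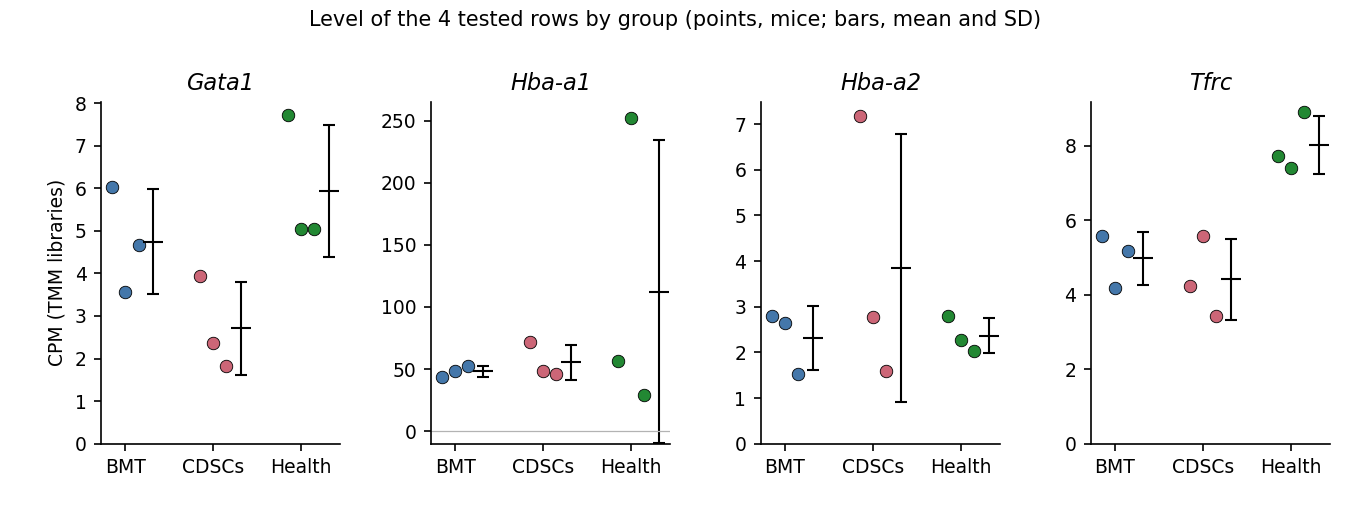
CPM of the 4 rows with a mean of at least 10 counts, a panel each with its own axis. Points are mice, and bars give the mean and SD of the 3 mice of a group. Tfrc is highest in the 3 Health mice, Gata1 is lowest in 2 of the CDSCs mice, and Hba-a1 in Health has a wide bar, with Health mouse 2 at 252 CPM above its end.

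The promoters of the genes of these names hold motifs of the lineage's factors, and a few are shown so that the genes meant by the names can be seen. RefSeq windows of 300 bases (build GRCm38.p6) were at hand for 8 of the 9 genes, in 9 windows. Both strands were searched for AGATAA (in 11.2% of all windows), for TGATAA (in 9.05%), for AGATAG (in 8.95%) and for TGATAG (in 7.29%). Of the 8 genes, 6 (Alas2, Epor, Ermap, Hba-a1, Hba-a2 and Klf1) held at least 1 of these words, against 29.8% of all 32851 windows. CACCC, which is found in 57.5% of all windows, was present for each of the 8, and CCACACCC, found in 3.56% and containing CACCC, for 0 of them. The windows of Hba-a1 and Hba-a2 share 297 of their 300 bases. The stretches printed here lie before the start of the gene in both RefSeq and GENCODE, and capitals mark the matches.
Hba-a2 at chr11:32296242-32296488, plus strand: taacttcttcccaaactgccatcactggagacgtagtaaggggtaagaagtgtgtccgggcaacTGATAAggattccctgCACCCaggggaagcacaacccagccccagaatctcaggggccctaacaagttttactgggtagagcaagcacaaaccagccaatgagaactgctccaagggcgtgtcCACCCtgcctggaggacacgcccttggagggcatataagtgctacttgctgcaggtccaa
Klf1 at chr8:84901732-84901927, plus strand: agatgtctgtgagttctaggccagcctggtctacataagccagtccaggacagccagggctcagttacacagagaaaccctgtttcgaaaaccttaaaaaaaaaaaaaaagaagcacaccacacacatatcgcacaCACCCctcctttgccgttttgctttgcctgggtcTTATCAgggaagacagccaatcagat
Epor at chr9:21963577-21963826, minus strand: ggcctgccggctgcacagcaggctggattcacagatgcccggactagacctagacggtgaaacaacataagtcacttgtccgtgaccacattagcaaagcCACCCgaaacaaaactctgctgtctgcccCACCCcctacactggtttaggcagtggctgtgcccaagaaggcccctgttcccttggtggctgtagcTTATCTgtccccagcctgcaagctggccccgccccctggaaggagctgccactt
A match is a description of these letters. The rows Klf1 and Epor, whose promoters hold both kinds of match, had at most 4 counts and 0 counts in any mouse.

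The 4 rows showed no clear common rise and fall over the 9 mice. Gata1 (16 to 69 counts), Hba-a2 (14 to 73) and Tfrc (30 to 83) held few counts, and counting error lowers r. With such counts and 9 mice, a shared movement cannot be called absent. For the 6 pairs of rows, Pearson's r of log2 CPM ran from -0.07 to 0.72 with a median of 0.21. Over all 79021306 pairs of rows tested the median was 0.00 with quartiles of -0.34 and 0.34. The highest pair was Gata1 with Tfrc (r = 0.72, exact permutation test over the 9 mice, p = 0.0299, adjusted p = 0.179 over 6 pairs; Spearman's rho 0.67, exact permutation p = 0.0589, adjusted p = 0.353). Without the 2 mice farthest from the median of Gata1 the same pair gave r = 0.41, which narrows the range of Gata1, and as deviations from the group means r = 0.33, while with any single mouse left out r stayed between 0.57 and 0.80.

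The 2 alpha globin rows, whose genes differ in a single coding base, had r = 0.20 (exact permutation p = 0.493, adjusted p = 0.776, n = 9) and rho = 0.32 (exact permutation p = 0.410, adjusted p = 0.843). Without the 2 mice farthest from the median of Hba-a1, r became 0.76. With a mouse left out, r of this pair ran from 0.13 (without Health mouse 3) to 0.62 (without Health mouse 2). Gata1 had r = 0.21 with Hba-a1 (exact permutation p = 0.555, adjusted p = 0.776) and r = 0.17 with Hba-a2 (exact permutation p = 0.646, adjusted p = 0.776), with rho of 0.18 and 0.22 (exact permutation p = 0.644 and 0.581, adjusted p = 0.843 for both). As deviations from the group means the pair of Gata1 and Hba-a2 stood at 0.77, and without the 2 mice farthest from the median of Gata1 at -0.20. With a mouse left out, r of this pair ran from -0.10 (without CDSCs mouse 3) to 0.40 (without CDSCs mouse 1). Tfrc had r = 0.21 with Hba-a1 (exact permutation p = 0.634, adjusted p = 0.776, rho = -0.08) and r = -0.07 with Hba-a2 (exact permutation p = 0.881, adjusted p = 0.881, rho = 0.08), and both rho values had an exact permutation p and adjusted p of 0.843. With a mouse left out, r of Tfrc with Hba-a1 ran from -0.40 (without Health mouse 2, which alone turned the sign) to 0.56 (without Health mouse 3). With Hba-a2 it ran from -0.35 (without CDSCs mouse 3) to 0.39 (without CDSCs mouse 1), and was also above 0 without Health mouse 3 (0.043). Of the 6 pairs, 0 passed after adjustment and 1 had an unadjusted p under 0.05.

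Each of the 4 rows had other rows much closer to it than its fellows. Parp8, Pcsk1n and Fam187a were the rows most like Gata1 (r = 0.97, 0.96 and 0.96 over the 9 mice), and 47 rows reached r = 0.9 with it. Gm37969, Myl12a and Ercc1 were the most like Tfrc (r = 0.97, 0.97 and 0.96), with 76 rows at r = 0.9 or above. For Hba-a2 these were Gm38223, Cyth3 and 9830144P21Rik (r = 0.94, 0.93 and 0.93), with 6 such rows. For Hba-a1 they were Sass6, Grn and Ggcx (r = 0.96, 0.90 and 0.90), and Sass6 was the 1 row at r = 0.9 or above. Their rho with Hba-a1 was lower, at 0.80, 0.60 and 0.65. These 9-mouse correlations share depth and group differences and were chosen as the highest of 12571 each. None of the rows named in this paragraph is one of the 9.

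A group of rows did rise and fall together, and it held few of the erythroid names. Hemgn, a nuclear protein of erythroid cells on the list of late erythroblast genes, was the row with the most counts on the erythroid lists, with a mean of 19384. It had 15108, 16725 and 19618 counts in the BMT mice, 26004, 15962 and 9508 in the CDSCs mice, and 28289, 30947 and 12299 in the Health mice. CDSCs mouse 1 and Health mice 1 and 2 were high, and CDSCs mouse 3 and Health mouse 3 were the lowest, while the BMT mice and CDSCs mouse 2 lay between. Tmod1, which caps the actin filaments of the red cell skeleton, and Sptb, the beta chain of erythroid spectrin, followed it (r = 0.99 and 0.98 over the 9 mice). They were the 2 of the 63 other erythroid rows tested with r of at least 0.9, or 3.17%, beside 1.28% of all rows tested, and the median r of the 63 was 0.05 beside -0.01 over all rows.

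A further 3 rows with no erythroid name had the same profile. They were picked for it after their values were seen, as was Hemgn, and so their likeness is a description without a test. Olfr648 had 302211, 302354 and 382109 counts in BMT, 580453, 208198 and 176042 in CDSCs and 473651, 550919 and 177620 in Health, and r = 0.94 with Hemgn. Itga2b, the integrin alpha chain of platelets, was the third highest row of the table and had r = 0.96 with Hemgn, while Gm15161, a processed pseudogene, had r = 0.89. Among these 6 rows (Hemgn, Tmod1, Sptb, Olfr648, Itga2b and Gm15161) the 15 values of r ran from 0.89 to 0.99. Slc4a1, the anion exchanger of the red cell membrane and a defining gene of the lineage, had a row with 219 to 436 counts and r = -0.26 with Hemgn.

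Against these rows the 4 members differed. Hba-a1 had r = 0.72 with Hemgn, 0.69 with Olfr648 and 0.72 with Itga2b, with rho of 0.87, 0.90 and 0.85. Gata1 had r = 0.66, 0.62 and 0.62 with the same rows, Hba-a2 0.48, 0.53 and 0.55, and Tfrc 0.44, 0.20 and 0.25. As deviations from the group means, r with Hemgn was 0.68 for Gata1, 0.68 for Hba-a1, 0.66 for Hba-a2 and 0.06 for Tfrc. Within groups, then, Tfrc had the lowest value of the 4.

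**Figure D3:**
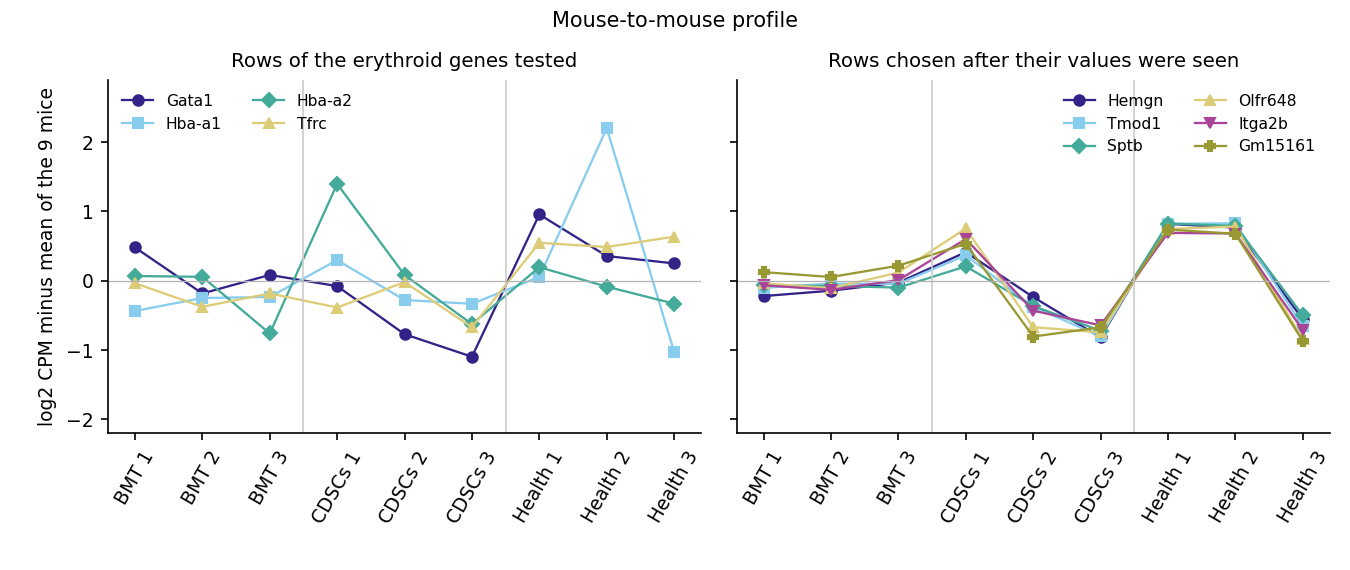
Level of each row in each mouse as log2 CPM minus the mean of the 9 mice, with the 4 tested rows of the erythroid genes on the left and Hemgn, Tmod1, Sptb, Olfr648, Itga2b and Gm15161 on the right. The 6 rows on the right, picked for a shared profile, run nearly on a line together, high in CDSCs mouse 1 and Health mice 1 and 2. The 4 on the left cross each other, with Hba-a1 far up in Health mouse 2 and Hba-a2 in CDSCs mouse 1.

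**Figure D4:**
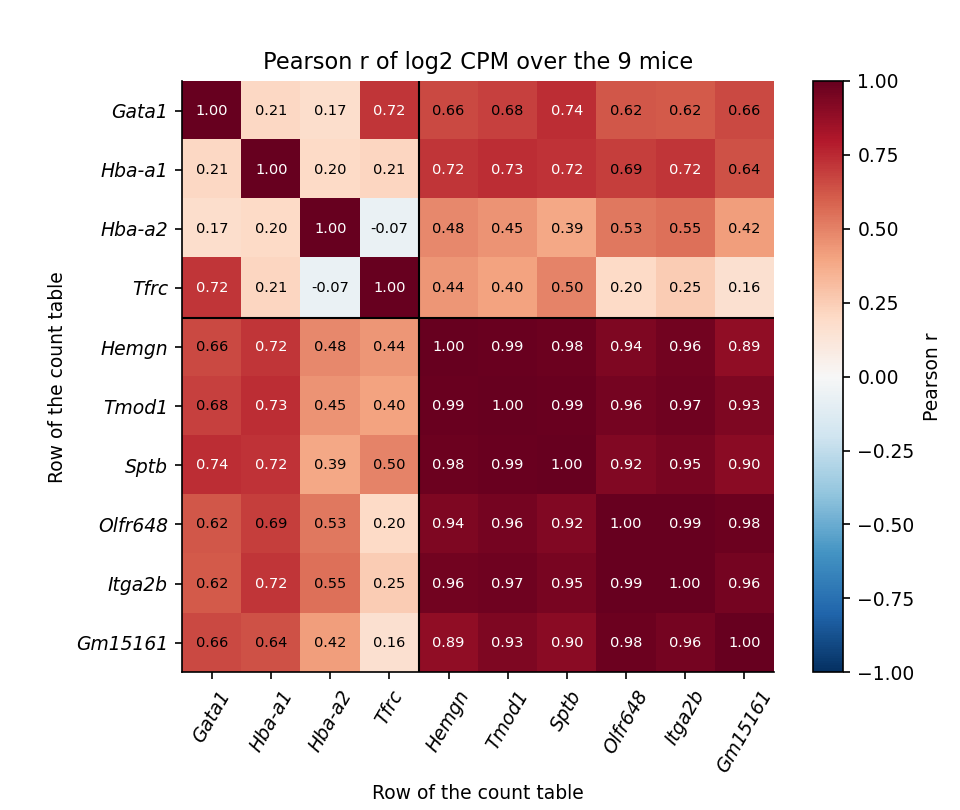
Pearson's r of log2 CPM over the 9 mice for every pair of these 10 rows, red for positive and blue for negative values. The 6 pairs among the 4 upper rows run from -0.07 to 0.72, and the 15 pairs among the 6 lower rows run from 0.89 to 0.99. The upper rows were found by name, whereas the lower rows were picked for a shared profile.

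The place of the rows with this profile was then set beside the place of the 9 genes, with starts from GENCODE M21. Within 2.5 Mb of each gene's start, rows with a mean of at least 1000 counts were listed with their r with Hemgn. The window and the cutoffs of 1000 counts and r = 0.9 were set after values were seen, so what follows is a description without a test. Over all chromosomes there were 1814 rows with a GENCODE place and that many counts, and 78 of them (4.30%) reached r = 0.9 with Hemgn. Near Alas2, whose row was at 0, 2 such rows stood 1230 and 1236 kb toward higher coordinates, n-R5s13 (mean 8903 counts, r = 0.90) and Gm15161 (mean 9988 counts, r = 0.89). Of these, 1 of 2 reached 0.9. Near Ank1, 2 of 9 rows did, of which Dkk4 stood at -351 kb (mean 5275 counts, r = 0.93) and Polb at -347 kb (mean 2201 counts, r = 0.91), against 1.67 counts for Ank1 itself.

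Near Tfrc, Muc20 stood at 168 kb (mean 6896 counts, r = 0.89) and Gm26769 at 199 kb (mean 12965 counts, r = 0.84), and 0 of 6 rows reached 0.9. As deviations from the group means, these 2 rows had r of 0.97 and 0.95 with Hemgn, where the row Tfrc had 0.06. The share of all such rows was counted for r over the 9 mice only, not for these deviations. Near Ermap, 2 of 11 rows reached 0.9, Plk3 at -2047 kb (mean 2490 counts, r = 0.95) and Ccdc30 at 147 kb (mean 7410 counts, r = 0.92). The nearest, Ppih at 125 kb, had a mean of 8212 counts and r = 0.899. Somewhat farther off, rows ran the other way, Ppcs at 243 kb (mean 8141 counts, r = -0.90) and Zmynd12 at 247 kb (mean 7601 counts, r = -0.85). Near Gata1, 1 of 6 rows reached 0.9, Glod5 at 44.9 kb (mean 1995 counts, r = 0.96), and the row with the most counts, Slc38a5, had a mean of 12902 counts and r = -0.54. Near Klf1, Epor and the alpha globin genes, 0 of 9, 0 of 13 and 0 of 4 rows reached 0.9, and the row nearest to Hemgn in profile around Klf1 was Nanos3 (mean 4231 counts, r = 0.69). Outside the 9 genes, Olfr648 lies 351 kb from the start of Hbb-bs, whose row was at 0, and Itga2b lies 104 kb from that of Slc4a1. Near Hbb-bs 1 of 4 rows reached 0.9, and near Slc4a1 1 of 16, where Zfp385c had r = -0.93. What the reads in these neighbouring rows came from was not tested.

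**Figure D5:**
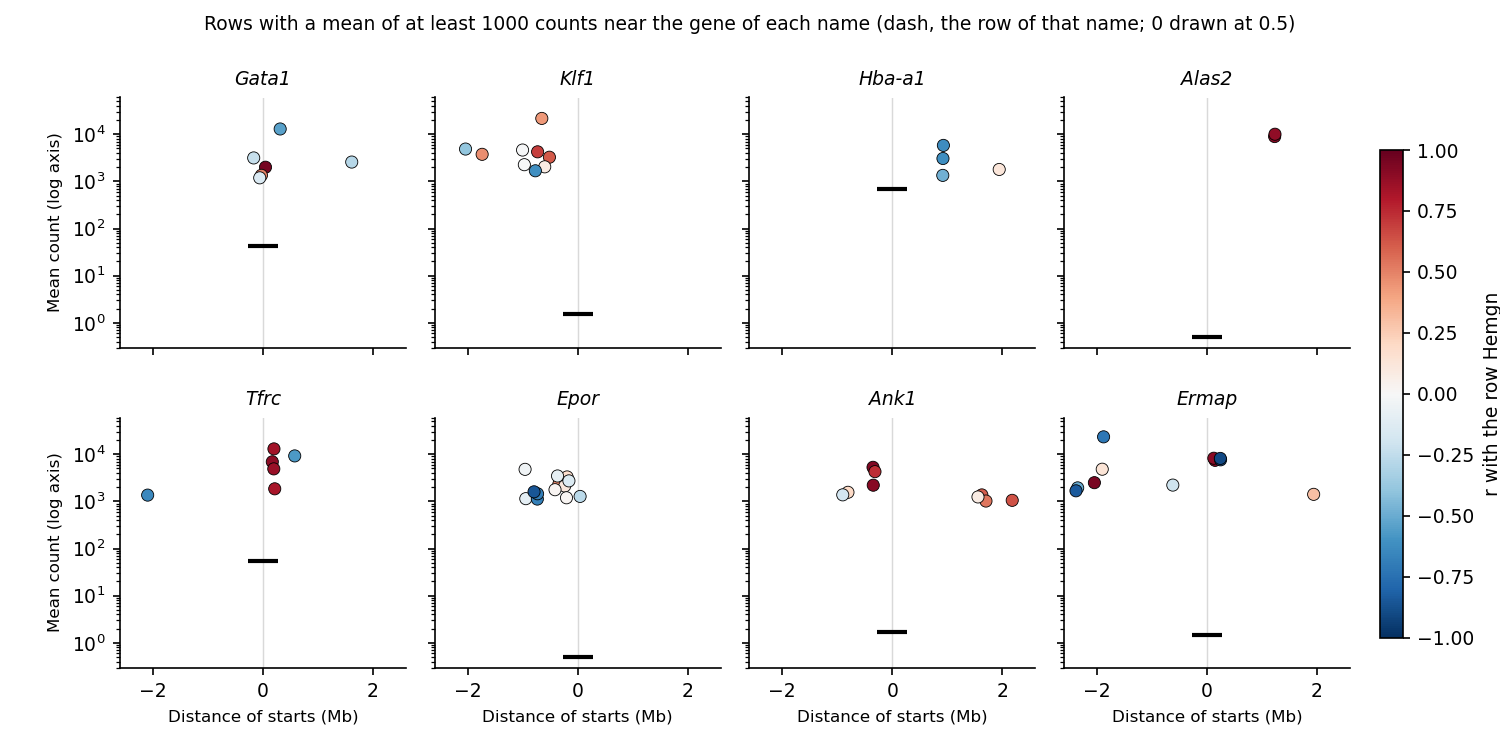
Rows with a mean of at least 1000 counts within 2.5 Mb of 8 of the genes, by distance of their start from the gene's start in Mb (horizontal) and mean count on a log axis (vertical), coloured by r with Hemgn over the 9 mice. The dash at 0 is the row of the gene's own name, with rows at 0 counts drawn at 0.5. All neighbours drawn have at least 1000 counts by selection. Dark red neighbours stand beside Alas2, Tfrc, Ank1, Ermap and Gata1, and blue ones beside Ermap, Tfrc and Gata1 as well.

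Between the recipients of CDSCs and of BM, 0 of the 4 rows differed in edgeR's quasi-likelihood test (adjusted p under 0.05 over all 12572 rows tested), beside 1.03% of all rows (0.326% higher and 0.7% lower in CDSCs). The lowest adjusted p of the 4 was that of Gata1, with a log2 difference of -0.77 ± 0.353 (SE; unadjusted p = 0.0536, adjusted p = 0.278 by edgeR) and a 95% interval from -1.55 to 0.01. In edgeR the 4 rows gave 0 calls at an unadjusted p under 0.05. DESeq2 and limma gave 0 calls at an adjusted p under 0.05. For Tfrc the log2 difference was -0.15 with an interval from -0.67 to 0.38. For the globin rows the intervals were wide, from -1.16 to 1.62 for Hba-a1 and from -0.37 to 1.89 for Hba-a2, whose difference of 0.76 became -0.05 without CDSCs mouse 1. The groups overlapped in all 4 rows, and did not in 22.2% of all rows tested.

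Between CDSCs and Health, 2 of the 4 rows were lower in CDSCs and 0 were higher, beside 17% of all rows called in either direction, 8.69% called higher and 8.28% called lower. Gata1 was 2.27-fold lower (log2 difference -1.19 ± 0.351 SE, edgeR adjusted p = 0.0436). Tfrc was 1.89-fold lower (log2 difference -0.92 ± 0.235 SE, edgeR adjusted p = 0.0252). In both rows the CDSCs and Health mice did not overlap, as in 33.5% of all rows. Hba-a1 had a log2 difference of -1.11 (adjusted p = 0.246) and Hba-a2 of 0.64 (adjusted p = 0.412), both from edgeR, and Hemgn one of -0.59 (adjusted p = 0.289 from edgeR). The sign of Hba-a1 rests on Health mouse 2 (0.31 without it) and that of Hba-a2 on CDSCs mouse 1 (-0.17 without it). With the 6 mice of these groups alone neither row passed, with log2 differences of -1.13 for Gata1 (adjusted p = 0.0980) and -0.87 for Tfrc (adjusted p = 0.0737) in edgeR. With a mouse left out, the log2 difference stayed between -1.55 and -0.94 for Gata1 and between -1.12 and -0.78 for Tfrc. Without CDSCs mouse 3, or without Health mouse 1, 2 or 3, neither row was called (adjusted p from 0.0540 to 0.153 for Gata1 and from 0.0529 to 0.0721 for Tfrc in edgeR), and without CDSCs mouse 2 Gata1 was not (adjusted p = 0.126 from edgeR). Some rows of other lists were also called, beside the 17% of all rows called. Between CDSCs and Health, 2 of 8 tested B cell rows were lower in CDSCs, 1 of 5 T cell rows was higher, and of 6 macrophage rows 1 was higher and 1 lower. Of the megakaryocyte, proliferation, and stem and progenitor lists, 0 of 6, 0 of 5 and 0 of 3 tested rows were called. Among rows used by every cell, 1 of 7 was higher. The 16 rows of the neutrophil list summed to 480 to 862 CPM in CDSCs and 2537 to 4185 CPM in Health (1866 to 4045 CPM in BMT). The row Mmp8, a collagenase of neutrophil granules, held most of these counts, with a mean of 21189 counts over the 9 mice. Of the 5 rows of this list tested, 1 was higher in CDSCs (Ltf, with 0 to 16 counts in a mouse) and 1 lower (Mmp8), with a median log2 difference of 0.15 beside -0.02 over all rows. Of the 16 rows, 4 had a mean of at least 10 counts, and the defining markers S100a8, Camp and Ctsg were at 0. The part of any of these rows in the fall of Gata1 and Tfrc was not tested.

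Between BMT and Health, 0 of the 4 rows differed, beside 2.44% of all rows (0.994% higher and 1.45% lower in BMT). Tfrc was the nearest, with no overlap between the groups (as in 28.6% of all rows), a log2 difference of -0.77 ± 0.233 (SE; unadjusted p = 0.00755, edgeR adjusted p = 0.124) and an interval from -1.29 to -0.26. It was the 1 row of the 4 with an unadjusted p under 0.05. Gata1 had a log2 difference of -0.42 (adjusted p = 0.578 from edgeR) and Hba-a2 of -0.12 (adjusted p = 0.941 from edgeR). For Hba-a1 it was -1.34 (adjusted p = 0.321 from edgeR), and without Health mouse 2 it was 0.08, so that its sign rests on that mouse. Without the filter on low counts Hba-a1 passed (adjusted p = 1.64e-09 in BMT and 4.79e-07 in CDSCs against Health, both from edgeR). Both comparisons with Health use the same 3 Health mice, and a difference called against Health in CDSCs and not in BMT is not a difference between the recipients, which was tested above.

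The wider erythroid programme was described by 8 lists of its genes, which name 129 genes, 123 of them in the table. Of these, 63 rows had a mean of at least 10 counts, 17 were at 0 in every mouse, and 64 were tested, the 4 rows above included. By role, rows with a mean of at least 10 counts were 5 of 10 globins, 13 of 20 transcription factors, 6 of 14 genes of heme synthesis and 11 of 24 of the membrane and its skeleton. They were 7 of 18 for iron, 10 of 15 for erythropoietin signalling, 4 of 9 for red cell enzymes and chaperones, and 8 of 15 for late erythroblasts. Against Health, 6 rows were higher in CDSCs and 8 lower (21.9% of the 64), and the median log2 difference of the 64 was 0.04 beside -0.02 over all rows tested. Against BMT, 0 rows were higher in CDSCs and 1 was lower (1.56%), with medians of -0.05 and 0.01. For BMT against Health, 3 rows were higher and 0 lower (4.69%), with medians of -0.06 and -0.02. Over all rows tested, the shares called were 17%, 1.03% and 2.44% in the same order.

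Individual rows of the lists moved in both directions. Gfi1b, a repressor of erythroid and megakaryocyte cells, had 3.31 ± 0.504 CPM in CDSCs, 1.81 ± 0.111 in BMT and 0.109 ± 0.107 in Health (SD, n = 3 each). It was higher in CDSCs (adjusted p = 0.000702 from edgeR) and in BMT (adjusted p = 0.00823 from edgeR) than in Health. The Health value lies below the level of 3 counts (0.295 to 0.343 CPM), and the row held 0 to 34 counts in a mouse. Xpo7, an exportin of late erythroblasts, was likewise higher in both (log2 fold change 1.99 in CDSCs, adjusted p = 0.0308, and 2.54 in BMT, adjusted p = 0.0384, from edgeR).

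The row lower in CDSCs than in BMT was Epb41, the protein 4.1 that joins spectrin to actin, at 0.960 ± 0.340 against 3.84 ± 0.221 CPM (SD, n = 3 each; log2 fold change -1.98, adjusted p = 0.0493 from edgeR). With a mouse left out its log2 fold change ran from -2.22 to -1.72. In 5 of the 6 fits that left out a mouse the call was lost (adjusted p from 0.0660 to 0.188 in edgeR, and 0.0342 without CDSCs mouse 3), as it was with DESeq2 size factors (0.0503), library size only (0.0511) and the 6 mice alone (0.0967). It was kept by DESeq2 (adjusted p = 0.00247) and by edgeR without the filter on low counts (adjusted p = 0.000701). With limma on log2(TPM + 1), an alternative chosen after seeing the data, the difference was -0.42 on that scale (adjusted p = 0.120). The row was also lower than in Health (log2 fold change -1.75, adjusted p = 0.0150 from edgeR). Other rows lower in CDSCs than in Health were Klf3, a relative of Klf1 (log2 fold change -1.54), Rhd, the Rh antigen (-2.18), Prdx2, the abundant peroxidase of red cells (-1.65), Clpx, which acts on the first enzyme of heme synthesis (-0.74), and Ube2o, a ubiquitin ligase of reticulocytes (-0.40). Their adjusted p ran from 0.0125 to 0.0469 in edgeR, and the row Rhd held only 1 to 20 counts in a mouse. Cbfa2t3, a cofactor that binds GATA1 complexes (1.25), Stat5b, a factor activated by erythropoietin (0.93), and Erfe, the hormone by which erythroblasts lower hepcidin (0.67), were higher in CDSCs than in Health, with adjusted p from 0.00495 to 0.0317 in edgeR. The globin rows Hba-x, Hbq1a and Hbq1b had log2 differences between CDSCs and Health of 0.40, 0.04 and 0.13 and did not pass (adjusted p from 0.134 to 0.942 in edgeR). The same held for Abcb10 of heme synthesis (-0.11), for Tfr2, Aco1 and Slc48a1 of iron handling (0.69, 0.44 and 0.66), for Jak2, the kinase of the erythropoietin receptor (-0.41), for the enzymes Pklr and Blvrb (-0.24 and 0.32), and for Nprl3 (0.34). The row Tfr2, the second transferrin receptor, thus stood higher by value in CDSCs than in Health where Tfrc was lower, with an adjusted p of 0.0816 in edgeR.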

How the data were processed

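RNA-seq of BM was available as 1 library per mouse (9 mice, poly(A) RNA). The authors trimmed reads with trimGalore, aligned them with HISAT2 (GRCm38 is the build in the submitters' processing notes) and made counts per gene with featureCounts. The annotation and strand setting of the counts are not given in the sources used here. Per the methods, libraries of CD45+ and CD45- cells were made, equalised in depth and combined, whereas the labels speak of all marrow cells. The deposited counts are whole numbers for 53172 names, and the authors converted them to TPM, which divide by gene length. The tables hold 0 other columns of per-sample values.

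Tests used edgeR 4.0.16 in R 4.3.3 on the counts, with filterByExpr (12572 rows kept, 23.6%), TMM, glmQLFit and glmQLFTest, all 9 mice and group as the factor. Tests were two-sided, with Benjamini-Hochberg adjustment over all rows and a threshold of 0.05. A standard error is the log2 fold change over the square root of F, and 95% intervals use the t quantile of the same fit. Correlations used log2 CPM (TMM, prior count 2) and an exact permutation of the 9 mice (two-sided). Gene places and coding sequences are from GENCODE M21, promoters from RefSeq. The edgeR fit was tested on simulated data. Alternatives were DESeq2 1.42.0, limma 3.58.1 on log2(TPM + 1), other normalizations and filters, the 6 mice compared, the replicate number as a block, the 2 alpha globin rows summed, and each mouse left out. The genes and lists were chosen with earlier results of these data known. The rule named the 9 genes, the 3 other genes of each list with the lowest p in any comparison, and the 3 rows most like each tested gene, some of which are not reported here. Same-numbered mice are different animals. Correlations, sequences and plots were made in Python 3.11.15 (numpy 2.4.6, matplotlib 3.10.9).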

Additional observations from a re-analysis of the deposited data

How the results depend on the processing

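Over the alternatives, 0 of the 4 rows differed between CDSCs and BMT in any of them, and 0 of the 6 correlations passed with log2(TPM + 1), with library size only or with a mouse left out. Between CDSCs and Health, the 2 rows called became 1 with library size only, with at least 10 counts in every mouse, with the replicate block and with limma on log2(TPM + 1), and 0 with only the 6 mice compared, and ranged from 0 to 2 with a mouse left out. The 2 calls made without the filter on low counts were Gata1 and Hba-a1. Between BMT and Health, without that filter 1 row was called and with a mouse left out 0. For the erythroid lists against Health, the 6 rows higher in CDSCs became 3 with the replicate block and 3 to 7 with a mouse left out, and the 8 lower became 5 with library size only or the replicate block, 3 with at least 10 counts in every mouse, 2 with the 6 mice compared and 0 to 7 with a mouse left out, where 0 was the value without Health mouse 2. Of the 3 rows higher in BMT, 1 passed with at least 10 counts in every mouse, and 1 row was lower without the filter or with the 6 mice compared. For CDSCs against BMT, 1 row was higher with DESeq2 or without the filter and 0 to 1 with a mouse left out, and the 1 lower (Epb41) became 0 with DESeq2 size factors, library size only, at least 10 counts in every mouse, the 6 mice compared or the replicate block, 2 without the filter, and 0 to 1 with a mouse left out (adjusted p of Epb41 0.0911 with the replicate block). The cause was not tested, beyond the fewer mice or rows of some alternatives. Deviations from the group means of same-numbered mice had r from -0.34 to 0.22, and 4 of 18 times a mouse was closest to its own number in another group, so the mice share only a number. The 5 rows set aside held too few counts for a comparison at this depth.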
